A study of Mus musculus with 1 sample.

Results

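The 10 genes described here are 9 genes of neuropeptides or their granules, Npy, Sst, Scg2, Penk, Cartpt, Trh, Tac1, Cck and Nts, and the somatostatin receptor gene Sstr2. They were chosen by symbol from the 51912 genes of the table, and all 10 had at least 1 unique molecular identifier (UMI), the tag that marks 1 captured transcript. The cells came from the cerebral cortex of wild-type C57BL/6 mice on the day of birth (P0), and 1 droplet library was analysed here, whose title calls the tissue telencephalic and whose number of animals is not given. There was no replicate, so no test between groups was made, and all intervals cover counting error only.

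Neuropeptides are cut from larger precursors, stored in dense-core granules and released to act on G protein-coupled receptors. In the adult cortex, somatostatin and neuropeptide Y are best known from inhibitory interneurons, cholecystokinin from interneurons and many pyramidal neurons, and substance P and enkephalin from the projection neurons of the striatum. Somatostatin acts through receptors that include the one encoded by Sstr2. Expression of several of these genes is known to respond to neuronal activity, in part through the cyclic AMP response element.

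The coding stretch of the mature peptide is shown for 5 precursors whose levels are described by class below, since it is what each precursor is cut to release. Capitals mark the codons of the peptide and lower case the codons just after it, which hold the amidation or cleavage signal. Each was read from GENCODE vM21 mouse transcripts (GRCm38).
Sst, somatostatin-14: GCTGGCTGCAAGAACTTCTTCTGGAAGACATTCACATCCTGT
Npy, neuropeptide Y: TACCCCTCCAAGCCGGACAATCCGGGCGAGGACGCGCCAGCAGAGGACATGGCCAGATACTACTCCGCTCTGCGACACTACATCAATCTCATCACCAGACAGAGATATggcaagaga
Cck, cholecystokinin octapeptide: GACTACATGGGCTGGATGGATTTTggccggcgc
Nts, neurotensin: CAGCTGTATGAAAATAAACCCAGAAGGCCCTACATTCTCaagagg
Tac1, substance P: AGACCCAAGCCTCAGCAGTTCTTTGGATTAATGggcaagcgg
Somatostatin-14 is encoded by the last 14 of 116 codons of the Sst precursor. Neuropeptide Y takes codons 29 to 64 of 97, and neurotensin codons 150 to 162 of 169. The Penk precursor of 268 codons holds 7 copies of the enkephalin core, and the Trh precursor of 256 codons holds 5 copies of the thyrotropin-releasing hormone progenitor.

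The promoters were also read, from 250 bases before to 50 after the start site in the RefSeq table (GRCm38.p6), because several of these genes moved together in the cells described below. A promoter was listed for 9 of the 10 genes. The palindromic cyclic AMP response element TGACGTCA, shown in capitals in windows of 40 bases, was present in 4 of them.
Sst, chr16:23890869-23890908, minus strand: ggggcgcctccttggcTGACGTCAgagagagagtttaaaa
Sstr2, chr11:113619253-113619292, plus strand: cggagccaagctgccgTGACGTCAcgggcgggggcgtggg
Scg2, chr1:79440071-79440110, minus strand: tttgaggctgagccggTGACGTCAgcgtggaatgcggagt
Cartpt, chr13:99900772-99900811, minus strand: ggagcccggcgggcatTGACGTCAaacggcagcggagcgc
The element starts 48, 58, 68 and 112 bases before the start site of Sst, Sstr2, Scg2 and Cartpt, and 1.79% of the 32851 promoters in the table hold it. TGANTCA, the AP-1 motif, is its own reverse complement and does not occur inside the element. It was in 1 of these promoters, that of Nts, and in 7.81% of all promoters. Npy, Scg2, Cck and Nts were higher in the cells with Fosl2 described below, and of these only Scg2 holds TGACGTCA. Sstr2 was lower there and holds it. A match is a description of the letters and not of binding. Only these patterns were sought, so shortened or variant elements would be missed. Whether either pattern bears on the levels in cells with Fosl2 was not tested.

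Cells were gated by marker UMIs, none of which was from a gene described here. The library held 11062 cells, of which 4 fell below 200 detected genes, and the other 11058 had a median of 7198 UMIs. The gates gave 1902 layer II/III-like, 599 layer IV-like, 424 layer V-like, 504 layer VI-like and 55 layer VIb-like excitatory neurons, and 3515 excitatory neurons without a layer. There were also 170 newborn neurons (Eomes-positive), 168 Lhx6-like and 149 Adarb2-like interneurons, 149 GABA neurons without a type and 27 striatal-type neurons. In each layer, interneuron and striatal gate every marker of its own list had a UMI, and all reached 5 CPM except 2 of the 5 layer IV markers. Layer and type lists were scored relative to their own mean, and newborn, Cajal-Retzius-like, dividing and precursor-like cells were taken by UMIs of their own list. In all, 7 classes held more of another class's list than of their own. Newborn neurons had 2006 CPM of the layer II/III list and 979 of their own, and Cajal-Retzius-like cells 732 CPM of the Adarb2 list and 569 of their own. Dividing and oligodendrocyte precursor-like cells had 4147 and 3302 CPM of the radial glia list and 4042 and 2890 of their own. Layer IV-like neurons had 1166 CPM of the layer II/III list and 987 of their own. Layer VIb-like neurons had 1200.0 CPM of the layer VI list and 909 of their own, and striatal-type neurons 1931 CPM of the layer V list and 1445 of their own. Cells in no gate or in conflict made up 22.6%, with a median of 1131 UMIs and 18.4% mitochondrial UMIs. No doublet caller was run, and cells above 20000 UMIs were 34.2% of layer V-like, 45.5% of layer VIb-like and 1.16% of layer II/III-like neurons.

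Levels are UMIs per 1000000 non-mitochondrial UMIs (CPM), summed over the cells of a class, with exact Poisson 95% intervals. A ratio of levels is given with its exact conditional binomial interval. Shares of cells with a UMI were taken after thinning each cell to 4000 UMIs. Of the cells, 7468 were deep enough for this. The background share of cells with a UMI was read in the 344 radial glia or astrocyte-like cells, called glia-like below.

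**Figure D1:**
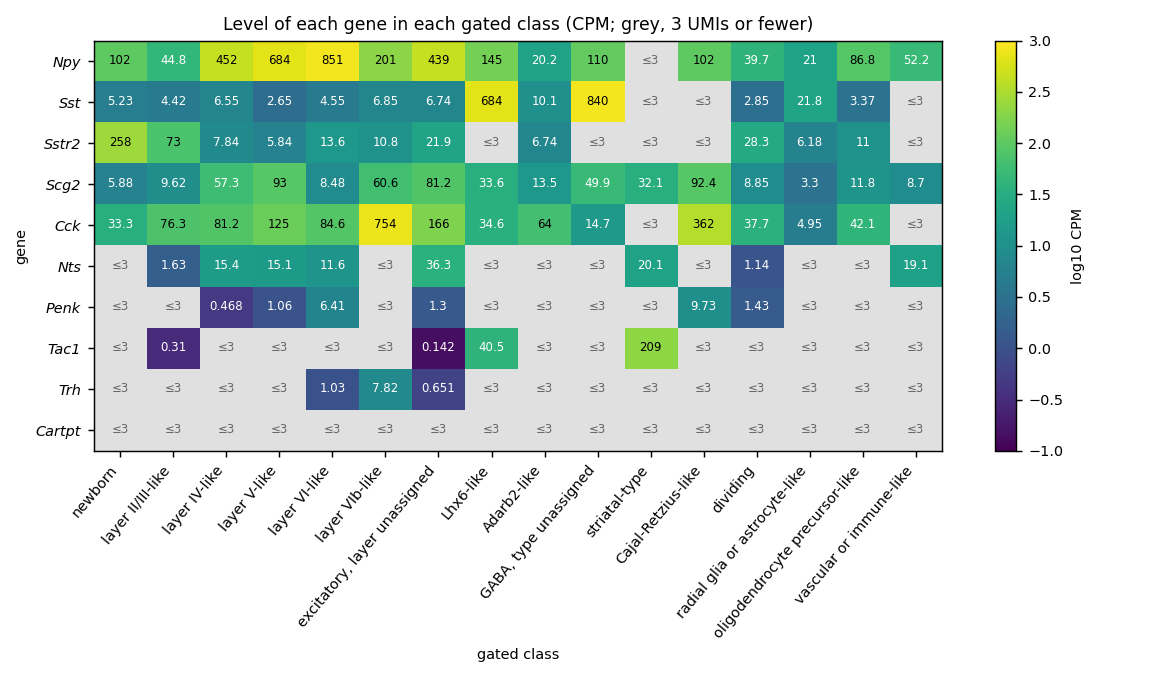
Level of each of the 10 genes (rows) in each of the 16 gated classes (columns), in CPM, with colour on a log10 scale; grey squares held 3 UMIs or fewer. Sst stood high in Lhx6-like interneurons and GABA neurons without a type, Npy in layers IV to VI, Cck in layer VIb-like neurons and Sstr2 in newborn neurons.

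Among interneurons, Sst, the precursor of somatostatin, was high in cells of the Lhx6 list, which marks interneurons of the medial ganglionic eminence, and near background in cells of the Adarb2 list, which marks those of the caudal eminence. It reached 684 CPM (634 to 737) in Lhx6-like and 10.1 CPM (3.71 to 22.0) in Adarb2-like interneurons, a ratio of 67.7 (30.9 to 185). With 6 UMIs behind the lower level this ratio moved with the processing, to 31.8 as means over single cells, 43.6 after thinning to 4000 UMIs and 102 with at least 1000 genes per cell. The 60 Lhx6-like cells with Sst held 1 to 58 UMIs each, with a median of 7. At 4000 UMIs, 37.4% of Lhx6-like cells had Sst, against 4.94% of Adarb2-like and 2.04% of glia-like cells. The unthinned shares were 35.7%, 3.36% and 3.20%. Median depth in these classes was 5902, 4276 and 7366 UMIs. In excitatory neurons the share was 1.41%, not above the glia-like share. Excitatory cells with Sst held a median of 1 UMI, but 8 of them held 5 or more, up to 49, so not all of it is read as background. The glia-like level was 21.8 CPM, with 39 of the 53 UMIs in 1 cell.

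GABA neurons without a type also carried much Sst, at 840.2 CPM (773 to 912), 1.23 times the Lhx6-like level (1.10 to 1.37). Of their 573 Sst UMIs, 116 lay in 1 cell, and the ratio without that cell was not taken, so the excess may rest on it. The UMIs sat in few cells: 16 of the 149 had 5 or more. All 16 of those had a Lhx6 UMI, and their median depth was 15317 UMIs, above the 3707 UMIs of their class. Of the 91 cells with 5 or more Sst UMIs in the whole library, 38 were Lhx6-like, 16 were GABA neurons without a type and 27 were ungated, of which 19 had Lhx6. The other 10 were 8 excitatory neurons and 2 glia-like cells. The genes highest in the 54 such GABA neurons against the other 439, chosen after their values were seen, were Cort (147 against 14.5 CPM), which encodes the somatostatin-like peptide cortistatin, and Grin3a (501 against 71.6 CPM), an NMDA receptor subunit. Npy was found in 27 of the 54 (50%) and in 15.3% of the others, at median depths of 9428 and 4503 UMIs, and the part of depth was not tested.

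Npy, the precursor of neuropeptide Y, was also higher in Lhx6-like interneurons, at 145 CPM (123 to 171) against 20.2 CPM (10.4 to 35.3) in Adarb2-like cells. The ratio was 7.19 (3.99 to 14.2). Among Lhx6-like cells with Sst at 4000 UMIs, 17 of 46 (37.0%, exact interval 23.2 to 52.5) also had Npy, against 18.2% (10.3 to 28.6) of those without Sst. These intervals overlap. Read the other way, 54.8% of the Npy cells had Sst and 31.5% of the rest. In the same class 0 of the 31 Npy cells had a Cck UMI (exact interval 0 to 11.2%), against 15.2% (8.58 to 24.2) of the others, and these intervals overlap.

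Scg2, which encodes the granule protein secretogranin II, was at 33.6 CPM in Lhx6-like and 13.5 CPM in Adarb2-like interneurons, a ratio of 2.49 (1.13 to 6.23). Cck, the cholecystokinin precursor, had its higher interneuron level in Adarb2-like cells, at 64.0 against 34.6 CPM, a ratio of 1.85 (1.14 to 3.02). With 10 CPM added to both sides, Npy and Sst were the 2 of 3 genes of this list with at least 50 UMIs that passed 2-fold upward in Lhx6-like against Adarb2-like cells, where 5.02% of 5463 genes did. None passed downward, where 3.66% did. The median log2 difference over the 3 genes was 2.36, beside 0.001 over all genes tested. Sst and Npy met the filter of 50 UMIs only through Lhx6-like cells, so the count and the median are no support.

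Tac1, the substance P precursor, had 148 UMIs in 38 cells. Of these UMIs, 52 lay in striatal-type neurons, at 209 CPM (156 to 274), and 41 in Lhx6-like interneurons, at 40.5 CPM (29.1 to 55.0). All 52 striatal UMIs were in the 10 cells gated by the D1 list (Drd1, Isl1, Ebf1), the markers of direct-pathway neurons, where 4 cells held 1, 3, 22 and 26 UMIs. The 16 cells of the D2 list had 0. With 3 UMIs put in place of that 0, the level was 19.1-fold higher in D1-list cells (6.19 to 95.7). This ratio was 10.7 (3.16 to 56.1) after thinning to 4000 UMIs. It was 10.6 (3.26 to 54.9) without the richest cell, an alternative chosen after seeing the data. In Lhx6-like interneurons 6 cells held 1 to 20 UMIs, and 32 of the 41 UMIs were in the richest 2 cells. Adarb2-like cells had none, and with 3 UMIs put in place of that 0 the Lhx6-like level was 8.02-fold higher, an estimate given without an interval.

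Penk, the enkephalin precursor of indirect-pathway striatal neurons in the adult, could not be compared there: 1 UMI was found in the D2-list cells and 0 in the D1-list cells. Nts, the neurotensin precursor, had 5 UMIs in 3 D2-list cells and 0 in D1-list cells. Against cortical interneurons, striatal-type neurons were lower in Sst (2 against 698 UMIs), Npy (3 against 159) and Cck (3 against 73), and higher in Tac1 by 8.17 times (5.32 to 12.6). So 3 of 5 tested genes passed 2-fold downward, where 8.28% of 5966 genes did, and 1 passed upward, where 2.97% did, with a median log2 difference of -1.33 beside -0.08 over all genes tested. Sst, Npy and Cck met the filter of 50 UMIs only through cortical interneurons, and Tac1 only through striatal-type neurons. These counts are therefore no support. Between D2-list and D1-list cells only Tac1 had 50 UMIs, and it reached them only through D1-list cells (52 against 0). It passed 2-fold downward in D2-list cells, where 2.82% of 852 genes did, and 1.41% passed upward. Since Tac1 was tested only through the group where it is high, this call is no support. The 27 striatal-type cells set the precision of all these values.

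Excitatory neurons held 93.3% of all Npy UMIs, with a steep gradient over layers. They were also 63.3% of the cells kept, at a median depth of 9157 UMIs against 7197.5 over all of them, so part of that share reflects their number and depth. The level was 851 CPM (826 to 878) in layer VI-like, 684 CPM (666 to 703) in layer V-like and 452 CPM (438 to 467) in layer IV-like neurons, against 44.8 CPM (41.3 to 48.6) in layer II/III-like neurons. Each of the first 3 levels exceeded the next beyond counting error. The layer VI-like level was 19.0 times (17.4 to 20.8) the layer II/III-like level and 5.86 times (4.97 to 6.96) that of Lhx6-like interneurons. Layer VIb-like neurons were at 201 CPM (175 to 231), but 1 of their 20 cells with Npy held 85 of the 206 UMIs, and the median was 2. Newborn neurons were at 102 CPM (86.6 to 119), which did not differ from the 86.8 CPM of oligodendrocyte precursor-like cells beyond counting error (ratio 1.17, 0.910 to 1.52).

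By share of cells the order differed. At 4000 UMIs, Npy was found in 56.5% (51.9 to 61.0) of layer VI-like, 44.2% (40.2 to 48.3) of layer IV-like and 33.6% (29.1 to 38.3) of layer V-like neurons. Cells with Npy held a median of 10 UMIs in layer V and 5 in layers IV and VI. These medians were not thinned, and median depths were 15338 UMIs in layer V-like and 9725 in layer VI-like neurons. Among cells of at least 4000 UMIs that had no UMI of Fosl2 (described below) the medians were 6.5 UMIs in layer V and 5 in layer VI, at depths of 16022 and 9871 UMIs. Here both the depth limit and Fosl2 changed the set of cells, and the part of each was not tested. In layer II/III-like neurons the share was 9.75% (8.32 to 11.3), against 5.44% (3.14 to 8.69) in glia-like and 13% (7.62 to 20.3) in oligodendrocyte precursor-like cells. The layer II/III-like interval overlaps both of the others. By level, however, the 44.8 CPM (41.3 to 48.6) of layer II/III-like neurons lay above the 21.0 CPM (15.6 to 27.6) of glia-like cells. The precursor-like class held 437 CPM of the excitatory list, and 5 of its cells had 5 or more Npy UMIs. Without thinning, the shares were 65.7%, 59.9%, 48.3% and 14.6% in layers VI, IV, V and II/III, and 11.9% in glia-like cells. Median depth was 13561 UMIs in layer IV-like and 6771 UMIs in layer II/III-like neurons.

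Scg2 had another order. It was at 93.0 CPM (86.2 to 100.1) in layer V-like and 57.3 CPM (52.4 to 62.6) in layer IV-like neurons, but at 8.48 CPM (6.08 to 11.5) in layer VI-like and 9.62 CPM (8.0 to 11.5) in layer II/III-like neurons. Layer VIb-like neurons were at 60.6 CPM, from 62 UMIs in 19 of 55 cells, and excitatory neurons without a layer at 81.2 CPM. The layer V-like level was 10.97 times (8.0 to 15.4) the layer VI-like level, the class in which Npy was highest. With cells above 20000 UMIs left out this ratio was 19.2, and with layer lists required to lead by 3 times it was 5.93. Cajal-Retzius-like cells, 22 in number, stood at 92.4 CPM (65.4 to 127) and did not differ from layer V beyond counting error. At 4000 UMIs, Scg2 was in 15.3% of layer V-like and 15.1% of layer IV-like but 1.91% of layer VI-like and 0.340% of glia-like cells.

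Cck was highest in layer VIb-like neurons, which the subplate leaves behind. There it reached 754 CPM (702 to 809) and was present in 40 of 55 cells (72.7%, 59.0 to 83.9) at 4000 UMIs, with a median of 13 UMIs per Cck-positive cell. Its level was 8.92 times (7.90 to 10.1) that of layer VI-like neurons. Cajal-Retzius-like cells followed at 362 CPM (306 to 425). Layers V, VI, IV and II/III had 125, 84.6, 81.2 and 76.3 CPM, and the last 3 did not differ beyond counting error. The share in layers II/III to VI lay between 17.0% and 26.9%, against 2.04% in glia-like cells. Without thinning, the layer VIb-like share was 90.9% at a median depth of 18987 UMIs, and the glia-like share was 3.49%.

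**Figure D2:**
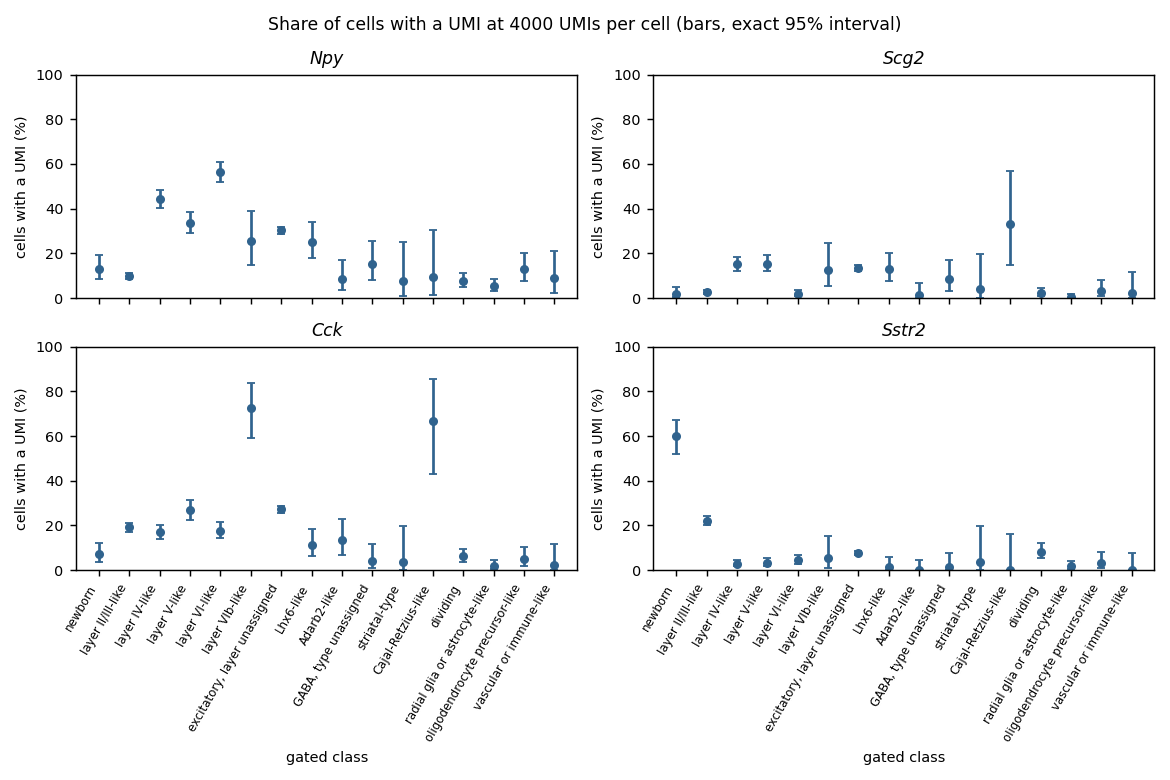
Share of cells (y axis, percent) with a UMI of Npy, Scg2, Cck or Sstr2 in each gated class (x axis) after thinning to 4000 UMIs per cell; points are shares and bars exact 95% intervals. Npy peaked at 56.5% in layer VI-like, Cck at 72.7% in layer VIb-like and Sstr2 at 59.9% in newborn neurons.

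The other precursors were sparse in the cortex. Penk had 109 UMIs in 89 cells and was highest among the layers in layer VI-like neurons, at 6.41 CPM (4.35 to 9.10), which was 6.04 times (2.72 to 15.2) the layer V-like level. A single Penk UMI was found in the 1902 layer II/III-like neurons. Trh had 51 UMIs, of which 8 were in 6 of the 55 layer VIb-like cells, at 7.82 CPM (3.38 to 15.4) against 1.03 CPM in layer VI-like neurons. Cartpt, the precursor of the CART peptides, had 6 UMIs in 5 cells, and no class held more than 3 UMIs.

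Deep-layer-like neurons (V, VI and VIb together) were also set against layer II/III-like neurons. Of the 6 genes tested, Npy at 15.8 times (14.5 to 17.2) and Scg2 at 6.24 times (5.16 to 7.60) passed 2-fold upward, where 3.48% of 12927 genes did. Sstr2 passed downward, being 8.08 times (6.68 to 9.85) higher in layer II/III-like neurons, where 1.78% of genes did. Cck was 2.08 times (1.92 to 2.24) and Nts 7.79 times (4.94 to 12.9) higher in the deep layers. Both missed 2-fold once 10 CPM was added, at 1.95-fold. The 170 deep-layer Nts UMIs lay in 14 of 983 cells, with 71 of them in 1 cell. The Nts interval covers counting error only and not this spread between cells, and the ratio without that cell was not taken. The median log2 difference over the 6 genes was 0.96, beside -0.03 over all genes tested. Nts met the UMI filter only through the deep layers (170 against 21 UMIs), and the median without it was not taken.

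Nts was held by very few cells. Of its 1680 UMIs, 49.5% lay in the richest 10 cells and 93.1% in the richest 50. By contrast the richest 10 cells held 4.26% of Npy and 2.97% of Sstr2 UMIs. There were 43 cells with 5 or more Nts UMIs, up to 126 in 1 cell, and 33 of them were excitatory neurons without a layer. In the 40 that were excitatory, Tle4 and Bcl11b, transcription factors of deep-layer neurons, were each present in 40 of 40 cells, at 718 against 158 CPM and 880 against 173 CPM in the other excitatory neurons. Foxp2, another transcription factor of deep-layer neurons, was lower, at 29.3 against 62.6 CPM, and was present in 25% and 22.4% of cells. Pde1a (155 against 15.1 CPM) and Ikzf2 (75.7 against 4.11 CPM) led the list by fold. These 40 cells and their leading genes were chosen after the values were seen.

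**Figure D3:**
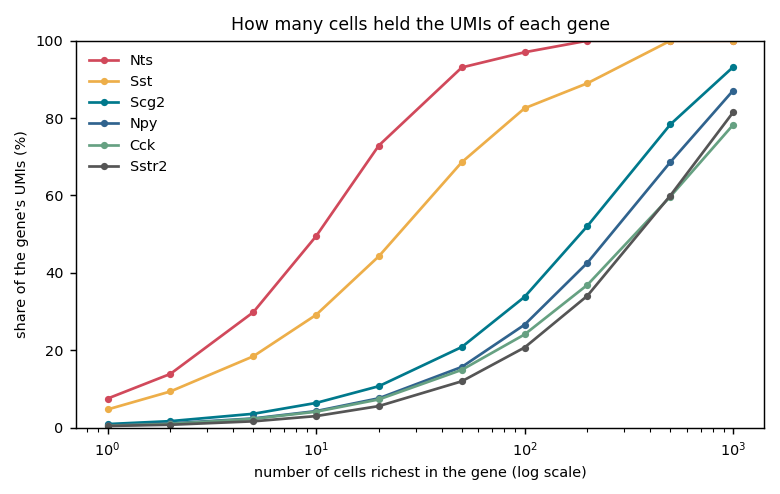
Share of each gene's UMIs (y axis, percent) held by the cells richest in that gene (x axis, number of cells, log scale). The richest 10 cells held 49.5% of Nts and 29.1% of Sst UMIs, and 2.97% of Sstr2 UMIs.

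Earlier results of these data had already named Sstr2 among the leading genes of an Eomes-led cluster, and the newborn gate requires an Eomes UMI. Its values in newborn neurons are therefore no independent support. Sstr2 was highest in newborn neurons. Its level there was 258 CPM (233 to 284), which was 3.53 times (3.13 to 3.97) the 73.0 CPM (68.4 to 77.8) of layer II/III-like neurons. The layer II/III list summed to 2006 CPM in the first and 2410 CPM in the second class. Among layer II/III-like neurons of at least 4000 UMIs, Sstr2 was at 74.8 CPM in the 1498 cells with an Igfbpl1 UMI after thinning and 11.02 CPM in the 50 without, a ratio of 6.79 (2.9 to 20.98) from 863 and 5 UMIs. Igfbpl1, a gene of young neurons, was chosen after values were seen. The level in dividing cells was 28.3 CPM (23.0 to 34.4), so newborn neurons stood 9.11 times (7.29 to 11.5) above them. Layer VI-like, VIb-like, IV-like and V-like neurons were at 13.6, 10.8, 7.84 and 5.84 CPM. At 4000 UMIs, 59.9% (52.0 to 67.4) of newborn and 22.2% (20.1 to 24.3) of layer II/III-like neurons had Sstr2, against 1.70% (0.554 to 3.92) of glia-like cells. Unthinned shares were 82.4%, 28.0% and 2.62%. Most positive cells held 1 or 2 UMIs, and the highest count in any cell was 11.

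Among the gated classes the ligand and this receptor were high in different ones. Of the Sst UMIs, 28.0% lay in Lhx6-like interneurons, 23.2% in GABA neurons without a type and 29.3% in ungated cells. Lhx6-like interneurons had 2 Sstr2 UMIs in 168 cells (1.98 CPM, 0.239 to 7.14) and GABA neurons without a type had 3 in 149 cells. Ungated cells were at 161 CPM of Sst and 34.2 CPM of Sstr2. Newborn neurons had 8 Sst UMIs, 1 in each of 8 cells. Of the 173 excitatory neurons with 3 or more Sstr2 UMIs, 67.1% had Rnd2 (249 against 23.5 CPM in the other excitatory neurons), a regulator of migration, and 75.7% had Svet1 (242 against 35.6 CPM), a marker of upper-layer precursors. Both genes were named after their values were seen. Between newborn and layer II/III-like neurons, Sstr2 and Npy were the 2 of 5 tested genes that passed 2-fold upward, where 2.83% of 11405 genes did, with a median log2 difference of 0.08 over the 5 beside 0.04 over all genes tested. Sstr2 was known beforehand from the Eomes-led cluster, so its call is no independent support. The Npy ratio was 2.27 (1.89 to 2.72), from 156 and 578 UMIs, and 1 newborn cell held 44 of the 156. Npy was in 30 of the 170 newborn neurons, with a median of 1 UMI, and the thinned shares of 13.2% (8.44 to 19.3) in newborn and 9.75% (8.32 to 11.3) in layer II/III-like neurons overlap. Without the richest cell of each class, an alternative chosen after seeing the data, the Npy ratio was 1.89 (1.53 to 2.33), and 1.71 with 10 CPM added, which did not pass 2-fold. None passed downward, where 1.24% did, although Cck was at 33.3 CPM in newborn and 76.3 CPM in layer II/III-like neurons, just short of 2-fold at 0.502 with 10 CPM added. Npy was just past it at 2.04.

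Same-cell detection was compared within classes at 4000 UMIs. Earlier clusters of these data had already shown Scg2 and Npy together, so the values for this pair are no independent support. Npy and Scg2 went together in layer V: 54 of 64 Scg2 cells (84.4%, 73.1 to 92.2) had Npy, against 24.4% (19.97 to 29.2) of the 353 cells without Scg2. Taking Npy first, 38.6% (30.5 to 47.2) of the Npy cells had Scg2 and 3.61% (1.74 to 6.54) of the rest. In layer IV the shares were 70.8% (60.2 to 79.9) and 39.5% (35.2 to 43.9). In layer II/III they were 11.6% (3.89 to 25.1) and 9.70% (8.25 to 11.3), which overlap. Layer VI-like neurons, where the Npy share was highest, had 9 Scg2 cells at this depth, 6 of them with Npy, so 2.26% of the Npy cells there had Scg2. Most layer V-like Scg2 carriers thus also held Npy, while most Npy carriers of both layers had no Scg2 detected.

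Cck and Npy were joined in layer V and apart in layer IV. In layer V-like neurons 39.3% (31.1 to 47.9) of the Npy cells and 20.6% (15.97 to 25.8) of the others had Cck. In layer IV-like neurons the shares were 9.62% (6.32 to 13.9) and 22.9% (18.4 to 27.8), so Cck was found less in Npy cells. Layer VI-like shares were 15.4% and 20.5% with overlapping intervals. Of the 31 excitatory neurons with Penk, 24 (77.4%, 58.9 to 90.4) had Npy, against 28.4% of the rest. Penk and Npy were both highest in layer VI, and within layer VI-like neurons the shares were 66.7% of 12 and 56.2%, with overlapping intervals.

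Sstr2 cells held Npy and Scg2 less often over all excitatory neurons, where Sstr2 also differs from both in its levels over layers. Over all excitatory neurons 14.3% (11.6 to 17.3) of the Sstr2 cells had Npy, against 30.3% (29.0 to 31.5) of the others, and 4.33% against 10.7% had Scg2. Within layer II/III-like neurons, where most Sstr2 cells were, Npy was in 7.58% (5.01 to 10.9) and 10.4% (8.71 to 12.2), which overlap. Npy was also found less often in Nts cells: 7 of 60 (11.7%, 4.82 to 22.6) had Npy, against 28.8% of the rest, and 1 of 60 had Scg2, against 10.1%.

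**Figure D4:**
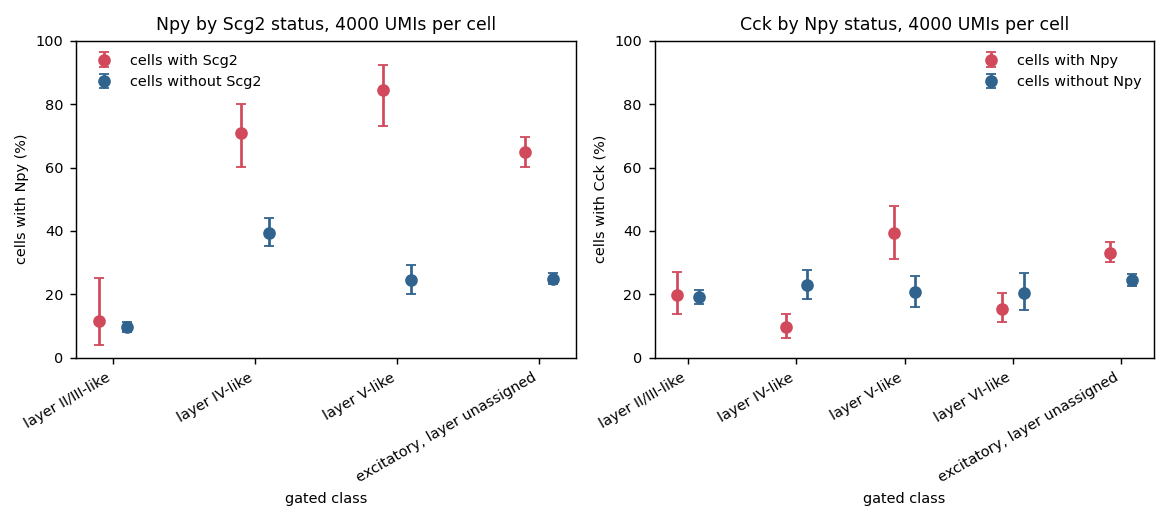
Left, share of cells with Npy among cells with (red) and without (blue) Scg2; right, share with Cck among cells with (red) and without (blue) Npy, by excitatory class at 4000 UMIs per cell, with exact 95% intervals (y axes, percent). Layer V-like neurons had Npy in 84.4% of Scg2 cells and 24.4% of the others, and Cck lay below in Npy cells of layer IV (9.62% against 22.9%).

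Excitatory neurons with a UMI of Fosl2, a subunit of the AP-1 transcription factor that neuronal activity and stress are known to induce, carried more of 4 of these peptides. Earlier clusters of these data had already shown Scg2, Npy and Fosl2 together, so the values for Scg2 and Npy are no independent support. At 4000 UMIs 215 excitatory neurons had Fosl2 and 5822 did not. Npy was at 1636 CPM in the first and 377 CPM in the second, a ratio of 4.34 (4.20 to 4.48). Scg2 was at 330.1 and 51.6 CPM, a ratio of 6.40 (5.94 to 6.90), and Cck at 411 and 127 CPM, a ratio of 3.23 (3.03 to 3.45).

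Nts had the ratio of 11.9 (10.7 to 13.3), at 191 against 16.05 CPM, but its UMIs came from 13 of the 215 cells. Sstr2 went the other way, at 8.70 against 26.5 CPM. These 4 genes of 7 tested passed 2-fold upward, where 0.41% of 15136 genes did, and none passed downward, where 0.178% did. The median log2 difference over the 7 genes was 1.62, beside 0.0035 over all genes tested. Without Scg2 and Npy, 2 of 5 genes passed upward, and the median was 0.18. Median depth was 11658 UMIs in the first and 9896 in the second group, and its part was not tested. The 2 groups also differ in layers. At 4000 UMIs, 1536 of the 1548 layer II/III-like and 381 of the 417 layer V-like neurons had no Fosl2 UMI. The part of layer in these ratios, including that of Sstr2, was not tested.

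Among the Fosl2 cells, most Scg2 cells also had Npy, while few Nts cells had Npy and none had Scg2. Of the Scg2 cells, 78 of 85 (91.8%, 83.8 to 96.6) had Npy and 60 (70.6%) had Cck. Both genes were common in Fosl2 cells as a whole: without thinning, 163 of the 215 had Npy and 145 had Cck. Those counts are not thinned as the shares are, so how far either gene goes with Scg2 here cannot be read from them. By contrast 1 of the 11 Nts cells had Npy, against 72.1% of the other 204, and 0 had a Scg2 UMI (exact interval 0 to 28.5%), against 41.7% (34.8 to 48.8). The layer gradients were also seen in cells of at least 4000 UMIs without Fosl2. There, Npy in layers VI, V and IV stood at 19.1, 11.9 and 10.3 times its level in layer II/III-like neurons, and Scg2 in layer V at 12.7 times (8.44 to 20.05) its layer VI-like level. The layer V-like level of Scg2 was 66.4 CPM in these 381 cells and 93.0 CPM in all 424 layer V-like cells, of any depth and with or without Fosl2.

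**Figure D5:**
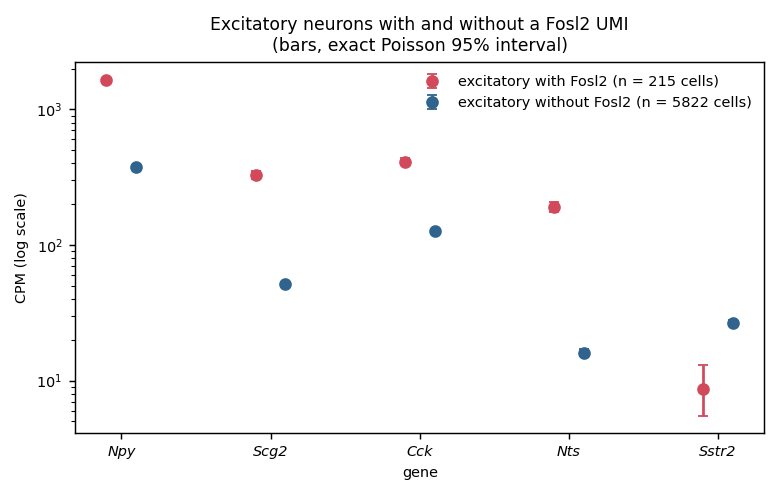
Level of 5 genes (x axis) in excitatory neurons with (red, 215 cells) and without (blue, 5822 cells) a Fosl2 UMI, in CPM on a log axis, with 95% Poisson intervals. Npy, Scg2, Cck and Nts lay higher in the cells with Fosl2, and Sstr2 lower (8.70 against 26.5 CPM).

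Genes that make and store peptides were also described. Of 12 processing and granule genes, 8 reached 100 CPM in a class of at least 50 cells. Pcsk1n, the inhibitor of a prohormone convertase, and Scg5, a chaperone of the other neuronal convertase, were highest in Lhx6-like interneurons (882 and 344 CPM). Chgb, the granule protein chromogranin B, was highest in layer VI-like neurons at 515 CPM, where Npy was highest too. Pam, the enzyme that amidates peptides such as neuropeptide Y, was highest in newborn neurons at 479 CPM (445 to 515) and was at 37.0 CPM in layer VI-like neurons. Cpe, the carboxypeptidase, and Scg3, another granin, were highest in glia-like cells (1060 and 316 CPM). In deep-layer-like against layer II/III-like neurons 4 of 11 tested processing genes passed 2-fold upward and 1 downward, with a median log2 difference of 0.66. Over all genes tested these shares were 3.48% and 1.78% and the median was -0.03. In newborn against layer II/III-like neurons 1 of 9 passed upward, beside 2.83% of all genes, with a list median of 0.72 beside 0.04. With against without Fosl2, 1 of 11 passed upward, beside 0.41%, with a list median of 0.18 beside 0.0035. In Lhx6-like against Adarb2-like cells 1 of 9 passed upward, beside 5.02%, with a list median of -0.01 beside 0.001. None passed upward of 9 in striatal-type neurons against cortical interneurons (2.97% of all genes, list median -0.08) or of 2 between D2-list and D1-list cells (1.41%, list median -0.18), and no gene of the list passed downward in these 5 comparisons.

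Of 19 other receptors for these peptides none reached 100 CPM, and Trhr2 had no UMI. Ntsr1, a neurotensin receptor and known marker of layer VI neurons, was highest in layer VI-like neurons at 59.3 CPM. Npy1r, a neuropeptide Y receptor, peaked at 30.8 CPM in layer IV-like neurons, and Sstr1, another somatostatin receptor, at 28.7 CPM in Lhx6-like interneurons. These 3 were named after their values were seen. Of 18 other neuropeptide genes 1 reached 100 CPM, Pnoc, the nociceptin precursor, at 143 CPM (114 to 177) in Adarb2-like interneurons. It was at 4.94 CPM in Lhx6-like interneurons, the reverse of Sst.

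The genes whose levels over the 14 classes of at least 50 cells ran closest to each member were taken among 12897 genes, as a description over classes of 1 library with unequal depth. For Npy they were Efna5 (Pearson's r = 0.957), Frmpd4 and Camkv. For Sst they were Lhx6 (r = 0.952), itself a gate marker, Dgkg and Rpp25. For Sstr2 they were Nrn1 (r = 0.909), Rbm15b and Sec22b, each highest in newborn neurons. Scg2 ran closest to Gabra5 (r = 0.905), Scn9a and Grm7, Cck to Upp2 (r = 0.933), Spint2 and Vdac3, and Nts to Gm42702 (r = 0.863), Olfml2b and Gm20696. The first 2 of these were highest in vascular or immune-like cells, where 11 Nts UMIs lay in 3 of 68 cells. Penk, Cartpt, Trh and Tac1 had fewer than 200 UMIs in these classes and were not compared.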

How the data were processed

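Cerebral cortex of P0 wild-type mice was digested with papain and captured in droplets (10x Chromium 3′). Whole-number UMI counts per gene and cell were deposited by the authors. The submitters' processing notes name STAR, Cell Ranger 2, Seurat and the build mm9, with no roles, and the files hold gene symbols without coordinates. The library held 90346034 UMIs, and the cells kept had quartiles of 2457 and 11166 UMIs. Genes, gate markers and lists were chosen with earlier results of these data known. The named genes were all 10 members, up to 6 genes per list reaching 100 CPM, and the 3 closest in pattern.

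Gates needed at least 3 UMIs from 2 or more markers (5 for radial glia or astrocyte-like), a 3-fold lead between GABA and excitatory lists, and a 2-fold lead of the layer or type list. Levels had exact Poisson, shares exact Clopper-Pearson and ratios exact conditional binomial 95% intervals. Fold counts added 10 CPM, among genes with 50 UMIs. A count of 0 was set to 3 UMIs for ratios. Likeness used log2(CPM + 1). Python 3.11.15, NumPy 2.4.6 and SciPy 1.17.1 were used, and the fold counts were tested on simulated data. A knock-in group and further libraries were not analysed here.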

Additional observations from a re-analysis of the deposited data

How the results depend on the processing

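The ratios of Sst and Npy between Lhx6-like and Adarb2-like interneurons, of Tac1 between D1-list and D2-list cells, and the share of Sst cells with Npy stayed within their counting intervals under the alternatives run for each. These were at least 1000 genes, at most 10% mitochondrial UMIs, at most 20000 UMIs, a 3-fold list lead, 5 UMIs of the own list and other thinning for all 4, single-cell means for Sst and Npy, and, chosen after seeing the data, without the richest cell for the 3 ratios. Their ranges were 31.8 to 102, 6.21 to 8.92, 10.6 to 19.1 (with 3 UMIs in place of the 0 of D2-list cells), and 30.6% to 46.7%. With at most 20000 UMIs per cell the Sstr2 ratio of newborn over layer II/III-like neurons was 4.24 and the Npy ratio of neurons with over without Fosl2 was 4.81. As means over single cells, the Fosl2 ratios were 7.61 for Scg2, 5.23 for Npy and 15.4 for Nts. The cause was not tested. Of the counts of genes past 2-fold, 4 instead of 1 passed between D2-list and D1-list cells without the filter on low counts, and 1 instead of 2 between newborn and layer II/III-like neurons with 50 CPM added. With 50 CPM added, 2 instead of 3 passed between deep-layer-like and layer II/III-like neurons. Between striatal-type neurons and cortical interneurons it was 3 instead of 4, and 5 without the filter. Between Lhx6-like and Adarb2-like cells 3 instead of 2 passed without the filter. Among layer ratios, with alternatives chosen after seeing the data, a 3-fold list lead gave 23.95 for Npy (layer VI over II/III) and 12.0 for Cck (layer VIb over VI). No result reversed. Without its richest cells the Npy ratio of newborn over layer II/III-like neurons was 1.89. Penk had at most 1 UMI in D2-list and 0 in D1-list cells under each cell filter, gate setting and thinning tried, so its ratio was not given. No paired analysis was possible because the labels name a single WT library. Differences between animals cannot be told apart from differences between cells, and classes of 10 to 55 cells limit the rare genes most.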

Other observations

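Some cells held many UMIs of 1 peptide, and the thresholds and genes named here were chosen after the values were seen. Of the excitatory neurons, 286 held 5 or more Scg2 UMIs. By fold with 10 CPM added their first 4 genes were Nr4a2, Gm2694, Sv2b and Gnb4. Nr4a2, an orphan nuclear receptor and 1 of the layer VIb markers, was at 559 against 36.7 CPM in the other excitatory neurons, Gm2694 at 122 against 11.8 CPM, Sv2b, a synaptic vesicle protein, at 121 against 15.8 CPM, and Gnb4, a G protein subunit, at 452 against 81.3 CPM. Nr4a2 was found in 32.2% of these cells, and Npy in 251 of them (87.8%) against 33.5% of the others. With Scg2 and Npy already known together from earlier clusters of these data, the Npy shares are no independent support. The median depth was 13160 UMIs in these cells and 8961 in the others.

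Fosl2 was also found in Sst-rich GABA neurons: 21 of the 54 with 5 or more Sst UMIs (38.9%) had it, against 4.33% of the other GABA neurons, at 52.0 against 10.0 CPM. The median depth of the first was 9428 and of the second 4503 UMIs. Among the 40 Nts-rich excitatory neurons 35% had Fosl2, against 6.48% of the rest, at median depths of 11340 and 9127 UMIs. Among the 173 Sstr2-rich ones 1.73% had it, against 6.77%, at 6597 and 9254 UMIs. These shares were not thinned, and the part of depth was not tested.

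Of the 15 cells with 2 or more Tac1 UMIs, 6 were ungated, 5 were Lhx6-like, 3 were striatal-type and 1 was a GABA neuron without a type. By fold with 10 CPM added, the first 3 genes of the 15 were Crabp1, a retinoic acid binding protein (403 against 1.79 CPM in the other cells), Ebf1, 1 of the D1-list markers (284 against 6.06 CPM), and Nxph1, an adhesion ligand of interneurons (357 against 19.8 CPM). Crabp1 and Ebf1 were each found in 26.7% of the 15 and Nxph1 in 73.3%.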
